A study of Mus musculus with 2 samples.

Results

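The proteasome is the protease complex that degrades ubiquitin-tagged proteins in the cytoplasm and nucleus. Its barrel, the 20S core, is built of outer rings of alpha subunits (Psma genes) that gate the entrance and inner rings of beta subunits (Psmb genes) that hold the protease sites. The 19S particle caps the barrel, with a ring of ATPases (Psmc genes) that unfold substrates and non-ATPase subunits (Psmd genes) that receive the substrate and remove ubiquitin. Activators (Psme genes) cap the core in place of the 19S particle, Psmf1 was described as an inhibitor, and Psmg genes with a few Psmd genes encode chaperones that assemble the complex. The genes are dispersed over the genome, are used in nearly every cell and are switched on together when proteasome activity falls short.

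The genes described here are the protein-coding GENCODE M1 genes whose symbol begins with Psma to Psmg, and they were searched for R-loop peaks of neural stem/progenitor cells (NSPCs). An R-loop is a structure in which nascent RNA pairs with its DNA template and leaves the other strand single, and G-rich coding strands are known to favour it. The rule found 52 gene models, and with 1 model kept for each symbol (the widest for Psmb9 and Psmd14) it gave 50 genes of 22367 protein-coding genes. Of these 50, Psmc3ip carries the prefix but encodes a recombination factor and no proteasome subunit, and Psme2b-ps is named as a pseudogene although its model is protein-coding. The primary NSPCs came from C57BL/6 mice at postnatal day 7 and, per the study's methods, were treated with aphidicolin, a DNA polymerase inhibitor that causes mild replication stress; the sample labels name no treatment. In DRIP-seq, genomic DNA was cut with 5 restriction enzymes (EcoRI, HindIII, BsrGI, SspI and XbaI), the S9.6 antibody was used to pull down RNA:DNA hybrids, and their DNA was sequenced. The labels give 1 DRIP and 1 input sample, and 1 list of 22132 peaks for the DRIP sample was analysed here, which per the study draws on 3 biological replicates. It holds positions on the mm9 genome without strand, height or read count, with the replicates not kept apart, so no replicate error can be given, the depth is unknown and no difference was tested.

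R-loop peaks overlapped 33 of the 50 proteasome genes (66.0%), compared to 39.6% of all protein-coding genes. The proteasome genes were not long, with a median of 11.6 kb compared to 15.4 kb, and the GC content within 2 kb of their starts was a median 47.4% compared to 48.0%. Because longer genes and GC-rich promoters more often contained a peak, the share was also taken over protein-coding genes in the same strata, 10 of length by 10 of promoter GC, weighted as the 50 genes fall in them. That share was 37.8%, or 18.9 genes in 50. The strata do not match transcription, of which the peak list has no measure. Per the study, nearly all genes with R-loop peaks had active or ambiguous transcription. How the proteasome genes compare to transcribed genes alone was not tested. R-loop peaks covered 8.93% of the 0.979 Mb of proteasome genes and 3.81% of the summed length of protein-coding genes. These covered shares were not matched on length or promoter GC, and long genes weigh most in a summed length.

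The peaks lay at starts, at ends and between them. The annotated start was inside a peak in 11 genes (22.0%), compared to 14.9% of all protein-coding genes and 13.3% in the same strata. The annotated end was inside a peak in 13 genes (26.0%), compared to 10.9% and 13.2%. A further 13 genes (26.0%) contained a peak that reached neither limit, compared to 18.1% and 15.8%. Psmb4, Psmb6, Psmd11 and Psme3 had both their start and their end in a peak.

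**Figure D1:**
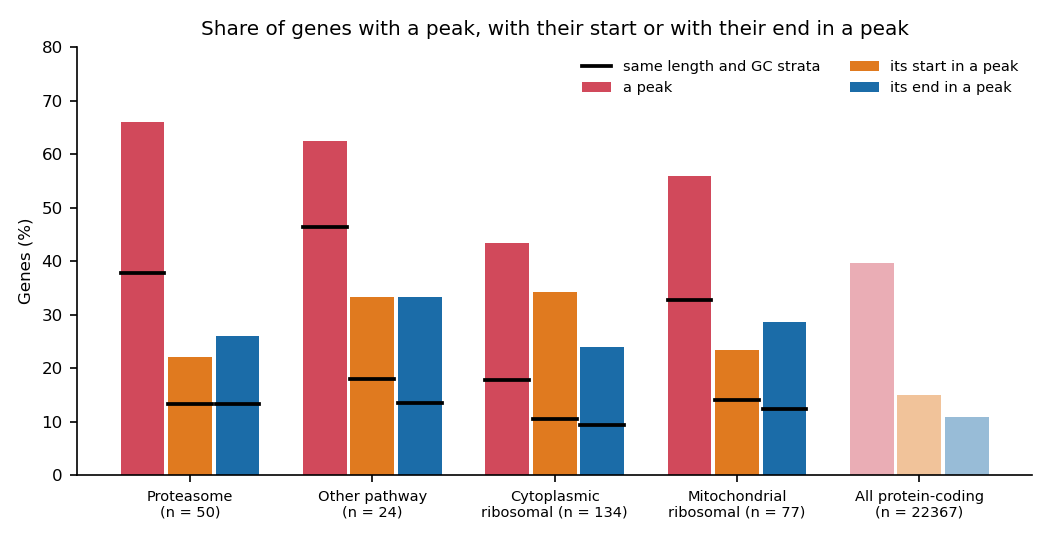
Bars show the percentage of genes with an R-loop peak (red), with their start in a peak (orange) and with their end in a peak (blue) for 50 proteasome genes, 24 other genes of the pathway, 134 cytoplasmic and 77 mitochondrial ribosomal protein genes and 22367 protein-coding genes; black lines give the share among protein-coding genes of the same length and promoter GC strata. There is 1 peak list and therefore no error bar. The red bar of the proteasome genes stands at 66.0% and its line at 37.8%. Ribosomal protein genes were taken by symbol alone and were not screened for pseudogene copies, and the strata do not match transcription.

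Counts were taken by place in the complex. All 7 standard beta subunit genes contained a peak, as did 10 of 11 genes of 19S non-ATPases, 4 of 5 activator genes and Psmf1. Among the others, peaks were found in 3 of 8 alpha subunit genes, 3 of 6 ATPase genes, 3 of 7 chaperone genes and 1 of 4 genes of beta subunits restricted to immune cells or the thymus. The shares of the alpha subunit and chaperone genes were near the 39.6% of all protein-coding genes. These groups are small, and differences between them were not tested. Of the 14 core genes other than Psma8, known from testis, and the immune and thymic subunits, 10 contained a peak, and of the 17 genes of the 19S particle, 13.

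**Figure D2:**
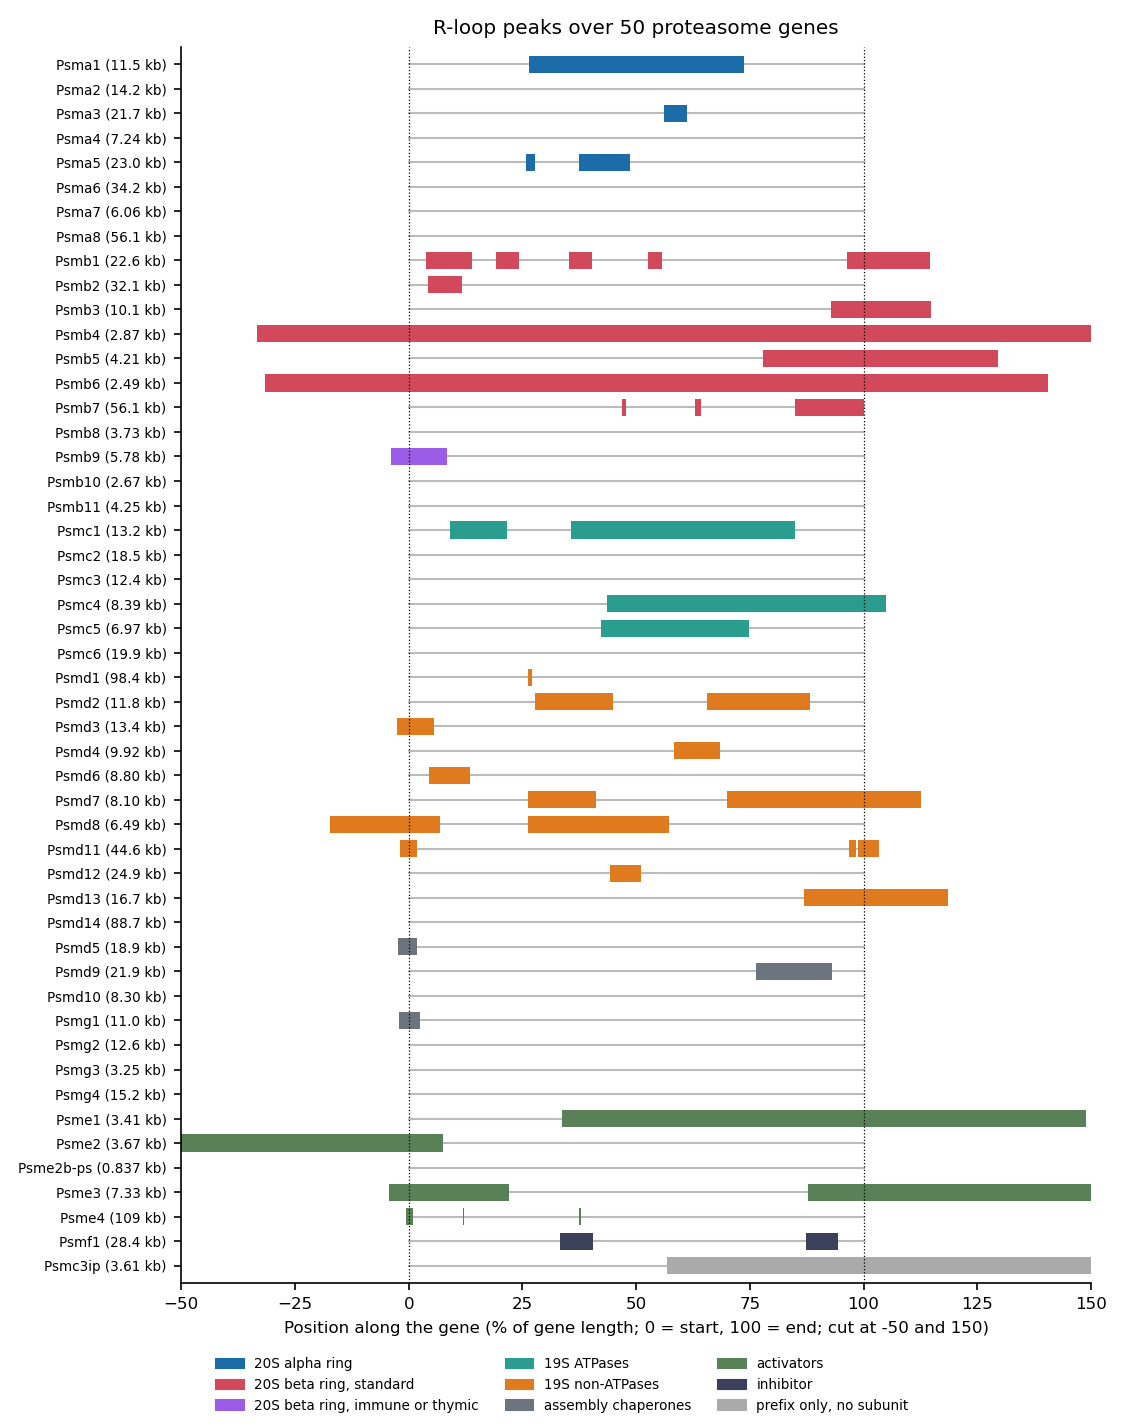
Each line is 1 of the 50 proteasome genes drawn from its start (0) to its end (100) in percent of its own length, which is given in kb beside the symbol, and boxes are R-loop peaks coloured by role, cut at -50 and 150. The standard beta subunit genes carry boxes in 7 of 7 lines with 6 of them across the end, whereas 5 of 8 alpha subunit lines are empty.

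The sequence under the peaks that cover gene starts was read first, because G-rich coding strands are known to favour R-loops. From 6 of the 11 starts, those in the widest peaks, the 60 bp of coding strand in which G most exceeds C outside annotated UTRs are printed 5′ to 3′ in mm9, with runs of at least 3 G in capitals. Psmb4 (chr3:94690182-94690241, minus strand), Psmb6 (chr11:70339065-70339124), Psme3 (chr11:101178225-101178284), Psme4 (chr11:30672666-30672725) and Psmd11 (chr11:80242577-80242636) gave intronic stretches, and Psme2 (chr14:56210485-56210544, minus strand) one upstream of the gene. The Psme2 stretch is printed on the strand of Psme2 but lies outside its annotated gene. Rnf31 begins 595 bp from the Psme2 start on the other strand.
Psmb4: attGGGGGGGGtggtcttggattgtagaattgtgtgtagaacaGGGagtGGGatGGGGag
Psmb6: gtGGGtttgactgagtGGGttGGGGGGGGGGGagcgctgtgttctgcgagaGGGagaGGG
Psme2: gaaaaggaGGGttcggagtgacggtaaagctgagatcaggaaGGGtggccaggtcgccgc
Psme3: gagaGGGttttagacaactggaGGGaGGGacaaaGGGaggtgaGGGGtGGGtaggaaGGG
Psme4: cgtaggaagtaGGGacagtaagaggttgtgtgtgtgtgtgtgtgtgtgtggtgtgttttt
Psmd11: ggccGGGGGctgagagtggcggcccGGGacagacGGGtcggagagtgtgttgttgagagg
The Psmb6 stretch, 196 to 255 bp past its start, had 35 G and 5 C, and those of Psmb4, Psme3 and Psmd11 had 30 to 32 G. The Psme2 and Psme4 stretches had 26 G each, in Psme4 together with a run of alternating G and T. The stretches were chosen for their G and are shown for what these peaks contain, not as evidence of enrichment.

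The standard beta subunits form the catalytic inner rings. Psmb5, which carries the chymotrypsin-like site (ENSMUSG00000022193, minus strand, chr14:55232644-55236851), had 1 peak of 2.17 kb across its end at chr14:55231401-55233573. Psmb6, which carries the caspase-like site (ENSMUSG00000018286, plus strand, chr11:70338869-70341360), lay wholly within 1 peak of 4.29 kb, chr11:70338085-70342374. Psmb7, which carries the trypsin-like site (ENSMUSG00000026750, minus strand, chr2:38443556-38499607), had 3 peaks, 2 short ones of 0.554 and 0.845 kb in introns and 1 of 8.61 kb at chr2:38443389-38451996 that reached 167 bp past its end. Each of the 3 genes with a protease site therefore had its end in a peak, and only that of Psmb6 also had its start in one.

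Among the beta subunits without a protease site were the gene with the widest peak, Psmb4, and the gene with the most peaks, Psmb1. Psmb4 (ENSMUSG00000005779, minus strand, chr3:94688015-94690883), 2.87 kb long, was covered by the widest peak over any of the 50 genes, 12.7 kb at chr3:94679109-94691838. This peak began 0.955 kb upstream of Psmb4 and ran into Pogz, a gene on the other strand whose end lies 1767 bp from that of Psmb4, so the peak cannot be given to either gene alone. Psmb1 (ENSMUSG00000014769, minus strand, chr17:15612685-15635240) had 5 peaks, more than any other of the 50 genes, which covered 26.8% of its 22.6 kb. In order from the start they measured 2.25, 1.16, 1.15, 0.718 and 4.17 kb, the last across its end. Psmb2 (ENSMUSG00000028837, plus strand, chr4:126354874-126386958) had a single peak of 2.37 kb in an intron, from 1.38 kb past its start. Psmb3 (ENSMUSG00000069744, plus strand, chr11:97564713-97574814) had 2.27 kb across its end, of which 0.729 kb lay in the gene. Psmb2 was thus the 1 gene of the 7 with neither limit in a peak.

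The beta subunits of immune cells and the thymus replace the standard protease subunits, and 3 of their 4 genes contained no peak. Over all protein-coding genes, 39.6% contained one, and with 4 genes the difference was not tested. Psmb9 (ENSMUSG00000092299, minus strand, chr17:34318933-34324709), the counterpart of Psmb6, had a peak of 0.719 kb over its start, chr17:34324221-34324939. That peak also covered the start of Tap1, a peptide transporter gene that begins 211 bp away on the opposite strand, and inside Psmb9 its coding strand had slightly more C than G, with a skew of -0.054. Psmb8, the counterpart of Psmb5 and 9.96 kb from Psmb9, contained none, although a peak of 4.39 kb began 121 bp past its end. For Psmb10, the counterpart of Psmb7, the nearest peak was 12.2 kb away, and for Psmb11, the thymic subunit that lies 7.29 kb from Psmb5, 2.96 kb away. The standard gene of each of these pairs (Psmb5, Psmb6 and Psmb7) had its end in a peak, and none of Psmb8, Psmb9, Psmb10 and Psmb11 did. Over all protein-coding genes the end was in a peak in 10.9%, so none among 4 is near that share.

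Peaks were found in 3 of the 8 alpha ring genes, away from the gene limits. Psma1 (ENSMUSG00000030751, minus strand, chr7:121408120-121419632) contained a broad peak of 5.46 kb, chr7:121411142-121416596, over 47.4% of the gene. Psma5 (ENSMUSG00000068749, plus strand, chr3:108059844-108082892) had 2 peaks of 0.471 and 2.58 kb, from 5.91 and 8.61 kb past its start. Psma3 (ENSMUSG00000060073, plus strand, chr12:72075608-72097334) had 1.07 kb over 4.95% of its length. None of the 8 starts or 8 ends of alpha subunit genes was in a peak. Over all protein-coding genes, 14.9% of starts and 10.9% of ends were, so none among 8 is near those shares. The remaining genes of the ring differed in how far away the nearest peak was. A peak of 4.79 kb began 20 bp past the end of Psma7 and ran away from the gene. Lsm14b ends 908 bp from that end on the other strand. The nearest peak was 2.45 kb from Psma2, 28.0 kb from Psma4, 68.4 kb from Psma6 and 84.6 kb from Psma8.

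The 6 ATPase genes split evenly. Psmc1 (ENSMUSG00000021178, plus strand, chr12:101348396-101361574) had 2 peaks, of 1.65 and 6.47 kb, over 61.6% of its length. Psmc4 (ENSMUSG00000030603, minus strand, chr7:28826726-28835120) had a peak of 5.15 kb that covered 56.6% of it and its end. Psmc5 (ENSMUSG00000020708, plus strand, chr11:106117468-106124434) had an interior peak of 2.26 kb over 32.5%. The covered shares of these 3 genes were all above the median of 14.2% over the 33 proteasome genes with a peak. Psmc2, Psmc3 and Psmc6 had none, and their nearest peaks lay 19.8, 7.27 and 15.4 kb away.

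Of the non-ATPase subunits of the 19S particle, the large scaffold subunits Psmd1 and Psmd2 differed in coverage. Psmd1 (ENSMUSG00000026229, plus strand, chr1:87960962-88059363), 98.4 kb long, had 1 peak of 0.943 kb, the smallest covered share of the 33 genes at 0.958%. Psmd2 (ENSMUSG00000006998, plus strand, chr16:20651725-20663487) had 2 peaks of 2.04 and 2.65 kb over 39.9% of its 11.8 kb. The ubiquitin receptor gene Psmd4 (ENSMUSG00000005625, minus strand, chr3:94836616-94846536), 146 kb from Psmb4, had an interior peak of 0.990 kb. None of these genes had a limit in a peak.

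The lid of the 19S particle holds the deubiquitinating enzyme Psmd14 and its partner Psmd7. Psmd14, 88.7 kb long, contained no peak, and the nearest was 37.5 kb away. Psmd7 (ENSMUSG00000039067, minus strand, chr8:110104281-110112382) had 2 peaks over 45.2% of its 8.10 kb, 1.22 kb inside the gene and 3.47 kb across its end. Psmd14 was the 1 gene without a peak among the 11 non-ATPase genes.

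The scaffolding subunits of the lid supplied the other peaks of the 19S particle. Psmd11 (ENSMUSG00000017428, plus strand, chr11:80242117-80286750) had a peak over its start, one just before its end and one across its end, of 1.70, 0.756 and 2.03 kb, separated by 42.3 kb without a peak and then by 185 bp. Psmd8 (ENSMUSG00000030591, minus strand, chr7:29959207-29965692) had 1.56 kb over its start, shared with Catsperg1, and 2.01 kb inside. Psmd3 (ENSMUSG00000017221, plus strand, chr11:98543868-98557293) had 1.08 kb over its start. These are the 3 non-ATPase genes with a covered start. Psmd13 (ENSMUSG00000025487, plus strand, chr7:148067867-148084542) had 5.31 kb across its end and into Cox8b. Psmd6 (ENSMUSG00000021737, minus strand, chr14:14944698-14953498) had 0.793 kb that began 0.401 kb past its start, and Psmd12 (ENSMUSG00000020720, plus strand, chr11:107340798-107365676) had 1.75 kb near its middle.

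Of the 7 assembly chaperone genes, 3 contained a peak, 1 peak each. Psmg1 (ENSMUSG00000022913, minus strand, chr16:96201540-96212567), whose product helps to build the alpha ring, had 0.492 kb over its start, the narrowest of the 11 starts, with the highest GC content of all 50 peaks (69.7%). Psmd5 (ENSMUSG00000026869, minus strand, chr2:34707608-34726459), a chaperone of the ATPase ring, had 0.772 kb over its start with 61.3% GC. Psmd9 (ENSMUSG00000029440, plus strand, chr5:123678199-123700140), another such chaperone, had 3.66 kb inside the gene. Psmd10, Psmg2, Psmg3 and Psmg4 contained no peak, and none lay within 18.5 kb of any of them, with 110 kb for Psmd10 on chromosome X.

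The start was in a peak in 3 of the 5 activator genes, compared to 14.9% of all protein-coding genes. With 5 genes this difference was not tested. Psme1 and Psme2 encode partners of the interferon-inducible activator and lie 5.91 kb apart on chromosome 14. Psme1 (ENSMUSG00000022216, plus strand, chr14:56196960-56200366) had 3.93 kb over 66.1% of the gene and across its end, where Fam158a ends 13 bp away. Psme2 (ENSMUSG00000079197, minus strand, chr14:56206278-56209950) had 2.18 kb over its start, of which 1.90 kb lay upstream and reached into Rnf31, which begins 595 bp away on the other strand. Hence the neighbouring genes carried their peaks at opposite limits. Psme3 (ENSMUSG00000078652, plus strand, chr11:101177527-101184851), the nuclear activator, had 1.92 kb over its start and 5.47 kb across its end into Aoc2. Psme4 (ENSMUSG00000040850, plus strand, chr11:30671726-30780361), a large activator found in the nucleus, had 1.74 kb over its start and small intronic peaks of 0.150 and 0.501 kb, together 1.62% of its 109 kb. Psme2b-ps had none within 43.3 kb.

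Psmf1 (ENSMUSG00000032869, minus strand, chr2:151541548-151569922), whose product binds the core, had interior peaks of 2.00 and 2.02 kb. Psmc3ip (ENSMUSG00000019303, minus strand, chr11:100953137-100956750), 221 kb from Psme3, had 6.09 kb across its end, where Mlx ends 384 bp away. Without Psmc3ip, 32 of 49 genes (65.3%) contained a peak.

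Counted as peaks, 50 distinct peaks overlapped the 50 genes, and 11 of them also overlapped another gene. A single peak was found in 22 of the 33 genes, 2 peaks in 7, 3 peaks in 3 and 5 in Psmb1. Of the 33, 33.3% had at least 2 peaks, compared to 45.6% of all protein-coding genes with a peak, whose median length was 27.4 kb compared to 11.5 kb. The member peaks had a median width of 2.01 kb, compared to 1.68 kb for all peaks over protein-coding genes and 1.32 kb for the whole list. By position, 28 were interior, 11 crossed an end, 9 crossed a start and 2, in Psmb4 and Psmb6, crossed both.

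The 2 peaks that crossed both limits had a median width of 8.51 kb. Among the rest, peaks across ends were the widest and those across starts the most GC-rich. The median width was 4.17 kb at ends, 1.56 kb at starts and 1.43 kb in the interior. The median GC content was 58.9% at starts, 49.7% at ends and 45.7% in the interior. The skew, (G - C)/(G + C) on the coding strand inside the gene, had a median of 0.147 at starts with 8 of 9 above 0, 0.058 in the interior with 23 of 28 above 0, and -0.002 at ends with 5 of 11 above 0. The median skew was thus highest at starts and near 0 at ends.

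Around the start, the share of proteasome genes under a peak reached 22.0% and fell to 12.0% about 1 kb into the gene. It rose again to 22.0% at 5 kb downstream of the start, where 7.29% of protein-coding genes were under a peak. At that distance 11 of the 50 genes, those under 5 kb long, had already ended. Around the end it was highest 200 to 400 bp past the end, at 30.0%, or 15 genes. These include Psma7 and Psmb8, which contained no peak but had one that began 20 and 121 bp past the end. For all protein-coding genes the highest share near the end was 12.1%, 1400 bp before it.

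**Figure D3:**
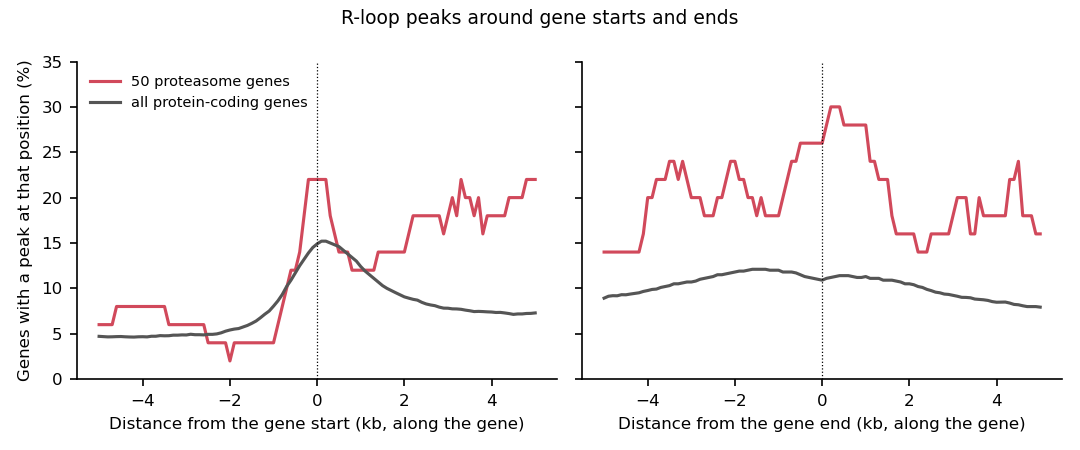
Lines give the percentage of genes under an R-loop peak at each distance, in kb along the direction of transcription, from the gene start (left) and the gene end (right), for the 50 proteasome genes (red) and all protein-coding genes (grey). The red line peaks at 22.0% at the start and at 30.0% just past the end, and 1 gene is 2% of the 50.

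The interior peaks were spread along the genes. Of their 28 midpoints, 5 lay in the first 20% of the gene, 8 at 20 to 40%, 8 at 40 to 60%, 4 at 60 to 80% and 3 in the last 20%. At least 1 exonic base was contained in 20 of the 28. The other 8 lay wholly in introns, in Psma5, Psmb1, Psmb2, Psmb7 and Psme4. In some of the interior peaks with high GC skew the sequence was a tandem repeat. From 3 of them, chosen after their values were seen, the 60 bp of coding strand in which G most exceeds C are printed, with runs of at least 3 G in capitals. They are in introns of Psmb1 (chr17:15623133-15623192, minus strand), Psmb7 (chr2:38464041-38464100, minus strand) and Psmd7 (chr8:110109529-110109588, minus strand).
Psmb1: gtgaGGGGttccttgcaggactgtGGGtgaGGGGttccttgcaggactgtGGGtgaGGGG
Psmb7: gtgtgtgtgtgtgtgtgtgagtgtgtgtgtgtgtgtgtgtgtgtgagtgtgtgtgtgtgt
Psmd7: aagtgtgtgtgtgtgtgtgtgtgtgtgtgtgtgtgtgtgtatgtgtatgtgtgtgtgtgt
The Psmb1 stretch repeats a G-rich unit, and those of Psmb7 and Psmd7 are GT repeats with 30 and 27 G and no C. The skew of these whole peaks was 0.347, 0.315 and 0.219. The most extreme skew of the 50 peaks had the other sign, -0.947 in an intronic peak of Psme4, where C far outnumbered G on the coding strand.

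Repeats and runs of G were counted over whole genes, on the coding strand. Repeats of at least 10 GT units occurred at 103 per Mb in the peaks of proteasome genes (9 repeats, in 6 peaks) and at 41.5 per Mb outside them, compared to 91.1 and 57.9 per Mb over all protein-coding genes. AC repeats of that length occurred at 45.8 per Mb inside and 35.9 per Mb outside, compared to 63.7 and 46.5 per Mb over all protein-coding genes. Clusters of 4 runs of at least 3 G, with 1 to 7 bases between runs, occurred at 160 per Mb inside the peaks and 72.9 per Mb outside, and the same clusters of C at 252 and 79.6 per Mb. Over all protein-coding genes, the G clusters stood at 221 and 99.6 per Mb and the C clusters at 199 and 126 per Mb. In the proteasome genes both strands thus had more such clusters per Mb inside peaks than outside, from 14 G clusters and 22 C clusters. Several clusters can lie in 1 peak, and short repeats can also affect alignment, whose part was not tested.

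Proteasome genes with and without a peak were close in median length and promoter GC. The median length was 11.5 kb in the 33 genes with a peak and 12.4 kb in the 17 without, and the median promoter GC was 47.1% and 47.4%. The skew over the first 1 kb of the gene had a median of 0.105 and was above 0 in 30 of 33 genes with a peak. In the 17 genes without a peak the median was 0.050 and 13 were above 0. These are 90.9% and 76.5% above 0. For all protein-coding genes the medians were 0.054 with a peak and 0.028 without, and 6408 of 8858 and 8101 of 13509 were above 0, a gap of about the same size in percent. Psmc4 had the highest skew, 0.286, and Psma6, which contained no peak, the lowest, -0.200. The ranges overlapped, since Psmd10 without a peak had 0.174 and Psmf1 with peaks had -0.080.

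**Figure D4:**
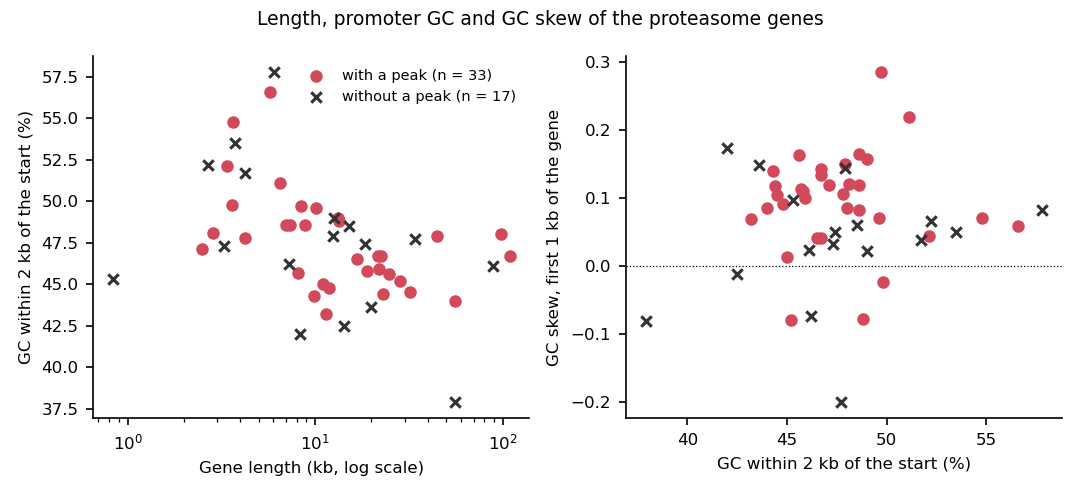
Each point is 1 of the 50 proteasome genes, with a peak (red circles, n = 33) or without (black crosses, n = 17); the left panel plots GC within 2 kb of the start in percent against gene length in kb on a log scale, and the right panel GC skew over the first 1 kb against the same GC. Circles and crosses overlap in all 3 measures, and 30 of 33 circles and 13 of 17 crosses lie above a skew of 0.

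Within classes of length the share with a peak was higher than that of all protein-coding genes in each class. Below 5 kb it was 6 of 11 genes (54.5%) compared to 15.9%, and from 5 to 10 kb it was 8 of 11 (72.7%) compared to 34.5%. From 10 to 20 kb the shares were 57.1% and 42.4%, from 20 to 40 kb 87.5% and 47.8%, and from 40 kb up 66.7% (4 of 6) and 58.6%. By promoter GC the order depended on the class. Below 45% GC 6 of 10 genes had a peak compared to 13.4%, and from 45 to 50% GC 23 of 32 (71.9%) compared to 44.5%. From 50 to 55% GC it was 3 of 6 (50.0%) compared to 56.0%, and from 55 to 60% 1 of 2 compared to 59.5%. The share was above that of all protein-coding genes in the classes below 50% GC and not in those above.

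Close neighbours were common. A gene on the other strand began within 1 kb of the start, on either side of it, in 10 of the 50 genes, compared to 10.8% of protein-coding genes. The start was in a peak in 2 of these 10, Psmb9 and Psme2, and in 9 of the other 40, and 6 of the 10 contained no peak (Psma2, Psma4, Psma7, Psmc2, Psmd10 and Psmg2), compared to 1033 of 2426 protein-coding genes with such a neighbour. Over all protein-coding genes, starts with such a neighbour were in a peak in 27.5% and the others in 13.3%. At the other limit, 10 of the 50 genes faced the end of a gene on the other strand within 2 kb, compared to 12.7%. The end was in a peak in 6 of these 10 (Psmb3, Psmb4, Psmb7, Psmc3ip, Psmd13 and Psme1) and in 7 of the other 40 (17.5%), and over all protein-coding genes in 28.3% and 8.40%. Facing ends therefore went with covered ends in both.

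Other genes of the pathway, taken from a list of ubiquitin genes, assembly factors, substrate shuttles and regulators of proteasome genes, had peaks in 15 of 24 (62.5%), compared to 46.4% in their strata. Nfe2l1, the transcription factor known to switch on proteasome genes when activity falls short, had 2 peaks over 83.5% of its 12.6 kb, its start and its end included. Its relative Nfe2l2 had 3 peaks over 48.4%, across its end and not its start. The polyubiquitin gene Ubb had 2 peaks over 73.9%, at both limits, whereas Rps27a, which encodes ubiquitin fused to a ribosomal protein, contained none. Nfe2l1, Nfe2l2 and Ubb were thus covered above the median of 14.2% of the proteasome genes with a peak. Pomp, an assembly factor of the core, had 1 peak over 14.7%, and Akirin2, which helps to import proteasomes into the nucleus, had 2 over 54.4%. Proteasome-associated Adrm1, Usp14, Shfm1 and Ube3c had none, nor did Ngly1, Ubqln1 and Ubqln2, while Uchl5 and AI314180 each had 1 over the start and Ubqln4 had 2 over 65.7%, its end included.

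Ribosomal protein genes, which also encode a large complex and as a class are known to be widely expressed, were set beside them. They were taken by symbol alone and were not screened for pseudogenes or retrocopies with protein-coding models. Any such copies among the 134 cytoplasmic models count in the shares below, so these shares may not hold for functional ribosomal protein genes alone. Cytoplasmic ribosomal protein genes had a peak in 58 of 134 (43.3%), compared to 17.8% in their strata, their start in a peak in 34.3%, compared to 10.5%, and a peak at neither limit in 2.99% (4 genes), compared to 3.08%. Their median length was 2.04 kb. Mitochondrial ribosomal protein genes, with a median length of 7.65 kb, had a peak in 43 of 77 (55.8%), compared to 32.8% in their strata, and a start in a peak in 23.4%, compared to 14.1%. Peaks at neither limit were found in 11.7% of the latter, close to the 11.6% in their strata, and in 26.0% of proteasome genes compared to 15.8%. The end was in a peak in 23.9%, 28.6% and 26.0% of the cytoplasmic ribosomal, mitochondrial ribosomal and proteasome genes, compared to 9.39%, 12.4% and 13.2% in their strata. These differences between groups were not tested, and the peak list carries no measure of transcription.

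The DNA was digested before the pull-down, so the peak edges were compared to the positions of the enzyme sites. Of the 100 edges of the 50 peaks, 40 were no more than 100 bp from a site that any of the 5 enzymes cuts, compared to 28.3% of the edges of all peaks. No site lay inside 17 peaks (34.0%), compared to 52.6%. Widths were not matched here, and the 50 peaks were wider, with a median of 2.01 kb compared to 1.32 kb for all peaks. The fragment that holds a gene start had a median length of 1.55 kb (0.288 to 4.25 kb) for the proteasome genes and 1.53 kb for protein-coding genes. It was 1.74 kb where the start was in a peak and 1.54 kb where it was not. The share of random positions this close to a site was not taken, and the part of fragment size in these peaks was not tested.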

How the data were processed

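DRIP-seq was performed on primary NSPCs by the study, with 1 DRIP and 1 input sample in the labels; the input was not analysed here. The authors trimmed reads (Trim Galore 0.6.6 in the submitters' processing notes) and aligned them to NCBI37/mm9; after removal of duplicates, a Hidden Markov Model served to call peaks. Repeat DRIP reactions of each of 3 biological replicates were pooled into a library, and the list draws on all of them; the rule that merged their peaks is not given in the sources used here. The deposited list gives each peak's chromosome, start and end in base pairs, with no score, so the depth is unknown. The mm9 sequence and GENCODE M1 of the same build were used, and positions are printed counting from 1. A gene contained a peak from 1 bp of overlap. Every member is accounted for, and positions are printed for members with a peak; sequences were taken from up to 6 starts in the widest peaks, outside UTRs and chromosome 18, and others were chosen after their values were seen. Members and lists were chosen with earlier results of these data known. Of the pathway symbols, 24 genes were found, under older symbols where needed; values of some of them, and 1 stretch of sequence, are not reported here. Start counting was tested on simulated data, where peaks were laid over 200 starts among 724 genes and all 200 were recovered. This checks the code alone and not the real peaks. Python 3.11.15, numpy 2.4.6, matplotlib 3.10.9 and samtools 1.23.1 were used. The alternatives were other peak widths, overlaps, gene limits, strata and members.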

Additional observations from a re-analysis of the deposited data

How the results depend on the processing

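The 33 genes with a peak became 26 to 35 under the alternatives, and the counts of starts and ends in a peak 8 to 12 and 12 to 16, each within 1.5 times the main count. Peaks of at least 1 kb left 27 genes (Psmb9, Psmd1, Psmd4, Psmd5, Psmd6 and Psmg1 lost), and a midpoint inside the gene, or at least 50% of the peak inside it, left 26 (Psmb3, Psmb4, Psmb5, Psmc3ip, Psmd13, Psmd5 and Psme2 lost). Flanks of 2 kb gave 35, with Psma7 and Psmb8 gained. The share in the same strata, 37.8%, moved to 30.6% with peaks of at least 1 kb, 35.7% with at least 500 bp, 32.1% by midpoint, 31.5% by 50% of the peak, 42.6% with 2 kb flanks and 43.4% with promoter GC taken within 500 bp. Alternatives added after seeing the data gave 34 of all 52 gene models and 32 of 44 genes (72.7%) without Psma8, Psmb8 to Psmb11 and Psme2b-ps. No paired analysis was possible because the result comes from no test. A gene without a peak may be one below the depth of the list, which is unknown.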

Other observations

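Promoters of the 50 proteasome genes, taken from 250 bp before to 50 bp after the annotated start in mm9, were searched on both strands for 3 short motifs. TGACNNNGC, the core of the antioxidant response element to which Nfe2l1 and Nfe2l2 are known to bind, was found in 7 of the 50 (14.0%), Psmb2, Psmb5, Psmb6, Psmc6, Psmd7, Psmd9 and Psmd12, compared to 12.5% of all protein-coding genes. Of these 7, only Psmb6 had its start in a peak. The 100 bp before its start (chr11:70338769-70338868, plus strand, mm9), which lie within its peak, are printed with the match in capitals.
Psmb6 upstream: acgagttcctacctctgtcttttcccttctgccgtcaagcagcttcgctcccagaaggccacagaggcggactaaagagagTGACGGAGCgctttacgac
CCAAT was found in 20 of the 50 genes, compared to 37.9%, and in 1 of the 11 with their start in a peak, Psme3. CCGGAAG, a core of ETS factor sites, was found in 17 genes (34.0%), compared to 10.8%, and in 4 of those 11, Psmd11, Psme3, Psme4 and Psmg1. No match of 1 motif overlapped a match of another, and a match describes only the letters.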
